A study of Zea mays with 12 samples.

Results

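Genes for proteins that carry or bind auxin were followed in maize root cells under attack by the root-knot nematode Meloidogyne incognita: aic1, an auxin influx carrier of the AUX1 family (Gene ID 541998), and the auxin-binding proteins abp1 (Gene ID 542232) and abp4 (Gene ID 542294). They were found by gene symbol, synonym or Gene ID in the array's annotation, and each is measured by 1 probe set, so 3 of the 17621 gene probe sets, and 3 of the 1108 genes named on the array, are described. The genes were selected on their measured difference between giant cells and control cells, so that difference is given below as a description, with no test. The comparison of days was not used to choose them and is tested.

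The 12 samples were laser-captured cells of roots, hybridised 1 sample to an Affymetrix maize array. The 4 groups were 21-day giant cells, 14-day giant cells, 21-day control cells and 14-day control cells, counted from inoculation, with 3 biological replicates each. All plants came, by the labels, from a cross of A188 and B73, were raised in a greenhouse on sand and turface, and received 1000 second-stage juveniles when the seedlings were 2 weeks old. Each giant-cell sample pooled about 40 to 60 cells (an area near 5000000 um2), and each control sample pooled about 75 to 150 cells (near 13000000 um2). Control cells were taken from parts of the same infested root systems that held no nematodes, so every group is from infested plants and no uninfested plant was sampled. The labels name no single root tissue for the control cells and do not tie arrays to plants. The p-values below therefore measure the spread between these arrays.

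Auxin enters plant cells partly by diffusion and partly through AUX1 and LAX permeases, plasma membrane proteins that carry auxin inward together with protons. Auxin-binding proteins were first purified from maize coleoptiles. They lie mostly in the lumen of the endoplasmic reticulum, held there by a retention signal at the end of the protein, and whether they act as auxin receptors has long been debated. Giant cells are the enlarged, multinucleate feeding cells that root-knot nematodes induce, and in Arabidopsis auxin responses are known at young feeding sites.

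Of the 3 genes, aic1 had far less signal in giant cells than in control cells on both days, abp1 had moderately more, and abp4 had about the same level. The values are MAS5 signals, a linear measure of probe set brightness that the authors scaled to the same trimmed mean on every array (500.1 to 500.2). Differences are on the scale of log2(signal + 9.5), where 9.5 is the 10th percentile of all deposited signals. This offset understates folds of dim probe sets. In pooled cells, fewer cells of a type that expresses a gene and less of its RNA per cell cannot be told apart.

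The influx carrier aic1 had signals of 7.31, 2.48 and 1.98 in giant cells at 21 days, and 1.5, 0.9 and 2.84 in giant cells at 14 days. In control cells it had 773.33, 376.78 and 864.61 at 21 days and 136.19, 46.45 and 649.91 at 14 days. The lowest control array thus lay above the highest giant-cell array, and the groups did not overlap on either day. All 6 giant-cell values lay under the offset, at percentiles 1.1 to 8.8 of all gene probe sets of their own arrays, which is the range where signals are mostly background. On the control arrays aic1 lay at percentiles 24.8 to 81.8.

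Group means of aic1 were 3.92 ± 2.94 in 21-day giant cells, 1.75 ± 0.99 in 14-day giant cells, 671.57 ± 259.35 in 21-day control cells and 277.52 ± 325.61 in 14-day control cells (SD, n = 3 each). The log2 difference, giant minus control, was -4.78 ± 0.52 (SE) averaged over the days, -5.60 ± 0.73 at 21 days and -3.97 ± 0.73 at 14 days. Because the giant-cell values are at background, the size of the difference is a bound. With the giant-cell level set to the offset, aic1 was at least 66.5-fold lower in giant cells at 21 days and at least 16.9-fold lower at 14 days. With it set to the 40th percentile of each array, the limit used here for a probe set to count as expressed, the bounds were 5.09-fold at 21 days and 1.24-fold at 14 days. The 14-day bounds depended on control replicate 3: without it the bound over the offset was 8.37-fold and none remained over the 40th percentile. Without control replicate 2 the 14-day bounds were 31.3-fold and 2.30-fold. The probe set passed that limit on 5 of 6 control arrays and on 0 of 6 giant-cell arrays, so it entered the fit only through the control cells.

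**Figure D1:**
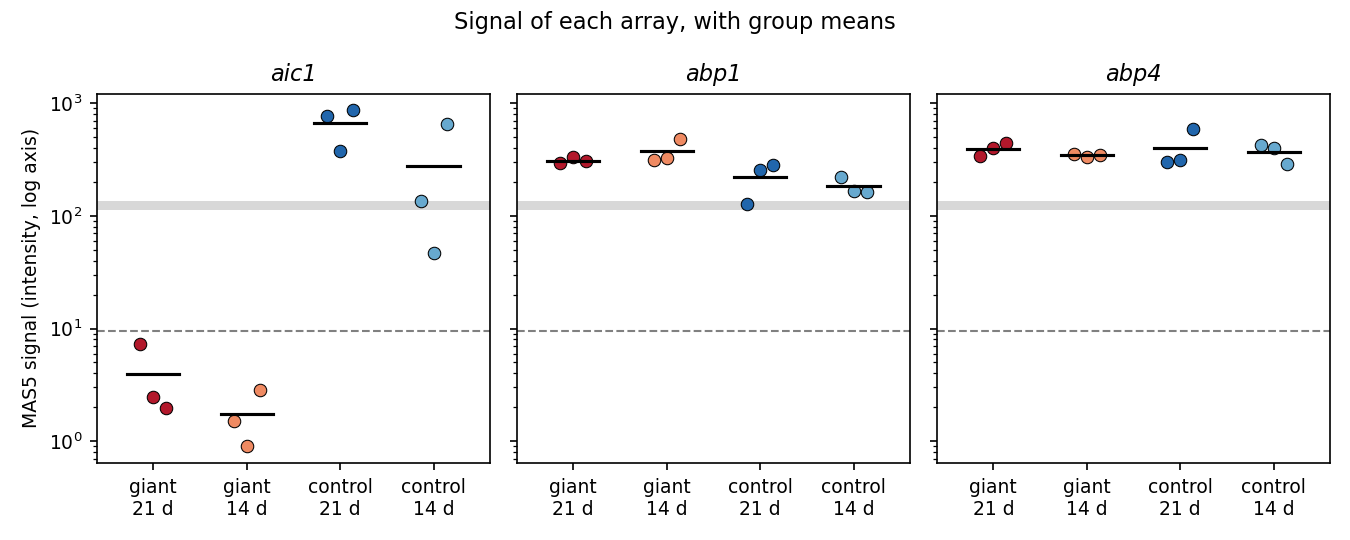
MAS5 signal (log axis) of aic1, abp1 and abp4 on each array; points are arrays, black bars group means, the dashed line is the offset of 9.5 and the grey band the range of the arrays' 40th percentiles (112.8 to 135.4). All 6 giant-cell arrays of aic1 sit under the dashed line, abp1 sits higher in giant cells than in same-day control cells, and the abp4 groups overlap.

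The auxin-binding protein gene abp1 had signals of 292.97, 330.92 and 304.85 in giant cells at 21 days and 313.83, 323.12 and 482.43 in giant cells at 14 days. In control cells it had 127.24, 255.33 and 283.04 at 21 days and 221.33, 165.01 and 163.59 at 14 days. Every giant-cell array lay above every control array, although at 21 days the nearest values were 292.97 in giant cells and 283.04 in control cells. The means were 309.58 ± 19.41 in 21-day giant cells, 373.13 ± 94.77 in 14-day giant cells, 221.87 ± 83.11 in 21-day control cells and 183.31 ± 32.93 in 14-day control cells (SD, n = 3 each). The log2 difference was 0.76 ± 0.22 (SE), or 1.69-fold, averaged over the days. It was 0.54 ± 0.31 at 21 days (1.45-fold) and 0.98 ± 0.31 at 14 days (1.97-fold).

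The related gene abp4 had signals of 337.19, 404.24 and 446.42 in giant cells at 21 days and 356.32, 331.19 and 343.81 in giant cells at 14 days. In control cells it had 302.46, 313.06 and 588.57 at 21 days and 429.26, 398.7 and 287.54 at 14 days. The giant-cell values lay inside the range of the control values, whose highest array was replicate 3 at 21 days. The means were 395.95 ± 55.08 in 21-day giant cells, 343.77 ± 12.57 in 14-day giant cells, 401.36 ± 162.21 in 21-day control cells and 371.83 ± 74.58 in 14-day control cells (SD, n = 3 each). The log2 difference averaged over the days was -0.03 ± 0.20 (SE), with a 95% interval of -0.45 to 0.40, or 0.732- to 1.32-fold on the authors' scaling.

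Across all probe sets, 12080 passed the filter on low signals and 5093 of them (42.2%) differed between giant and control cells averaged over the days (limma, adjusted p under 0.05), 3038 higher (25.1%) and 2055 lower (17.0%) in giant cells. For 23.2% of the tested probe sets giant-cell and control arrays separated without overlap, in some direction, at 21 as well as at 14 days, and aic1 and abp1 did so too. Since the genes were chosen by this contrast, nothing is read from that count. Among the tested probe sets, 32.2% had a larger difference, in either direction, than abp1 and 97.4% a larger one than abp4. The aic1 difference, being a bound, is not ranked.

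In order of group means, aic1 was highest in 21-day control cells, then 14-day control cells, 21-day giant cells and 14-day giant cells. Only the step between control cells at 14 days and giant cells at 21 days separated groups whose ranges did not overlap. For abp1 the order was 14-day giant cells, 21-day giant cells, 21-day control cells and 14-day control cells, and only the step between giant cells and control cells at 21 days had no overlap. For abp4 the order was 21-day control cells, 21-day giant cells, 14-day control cells and 14-day giant cells, and all neighbours overlapped.

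The rank within the array does not depend on how arrays were scaled. The abp1 probe set lay at percentiles 57.0 to 69.3 on the giant-cell arrays and 42.0 to 57.2 on the control arrays. At 21 days its giant-cell percentiles began at 58.6, above the highest control value of 57.2. The abp4 probe set lay at percentiles 59.0 to 68.2 on the giant-cell arrays and 59.6 to 74.5 on the control arrays, ranges that overlap. Both auxin-binding protein genes thus lay above the 40th percentile on all 12 arrays.

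**Figure D2:**
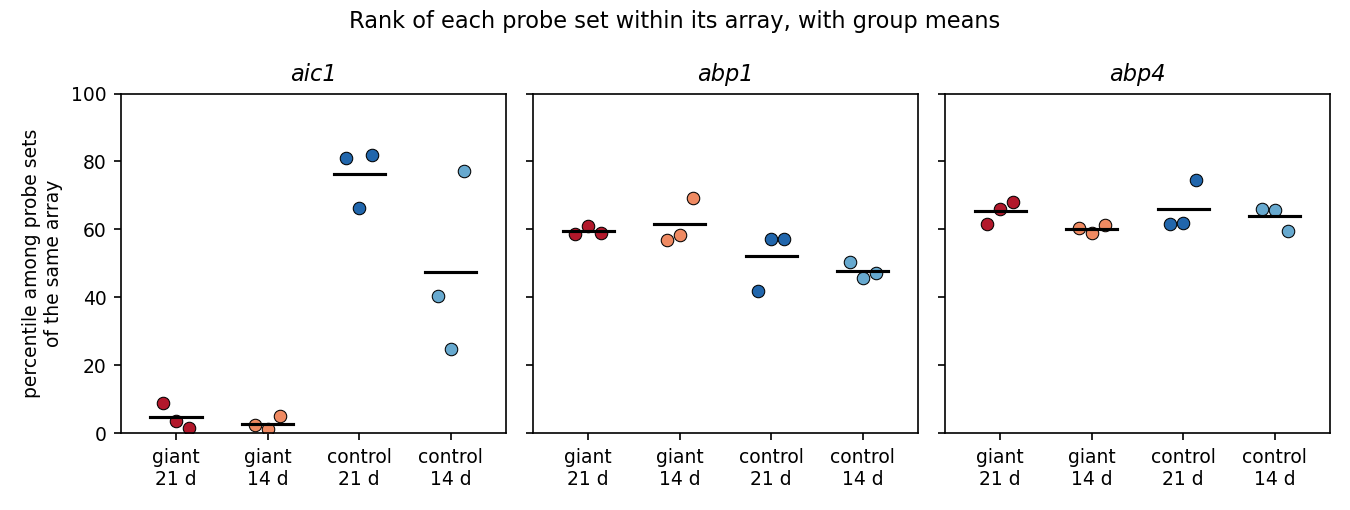
Percentile of each probe set among all gene probe sets of the same array (0 to 100), by group; points are arrays and bars group means. The aic1 probe set lies at 1.1 to 8.8 in giant cells and spreads over 24.8 to 81.8 in control cells, while abp1 and abp4 stay between 42.0 and 74.5.

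A ratio of 2 probe sets on the same array is also free of the scaling. The log2 ratio of abp1 to abp4 signal was -0.20, -0.29 and -0.55 in giant cells at 21 days and -0.18, -0.04 and 0.49 in giant cells at 14 days. In control cells it was -1.25, -0.29 and -1.06 at 21 days and -0.96, -1.27 and -0.81 at 14 days. The median was -0.19 in giant cells and -1.01 in control cells, a difference of 0.82, and the ranges overlapped only at replicate 2 of the 21-day control cells. These ratios compare how the relation between the probe sets shifted and do not rank the abundance of the 2 transcripts.

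The values of the auxin-binding protein genes depended on the scaling. Bacterial and phage transcripts added as controls (27 probe sets) gave more signal on giant-cell arrays, by 0.70 log2 units. The amount added per array is not given, so they are not taken as a measure of RNA input. Scaling each array to them moved the median difference of all tested probe sets to -0.53, against 0.15 as deposited. It also turned the balance of calls, to 463 higher (3.83%) and 4999 lower (41.4%) in giant cells, against 3038 and 2055 as deposited. After quantile normalisation 2733 were higher (22.6%) and 2185 lower (18.1%). Scaled to the added transcripts, the log2 difference was 0.09 for abp1, whose groups then overlapped. For abp4 it was -0.71, and its giant-cell arrays then lay below all same-day control arrays. Relative to the median of all tested probe sets, abp1 was 0.61 higher, both as deposited and when scaled to the added transcripts. On the same measure abp4 was -0.18 both times. A single factor per array moves a probe set and the median nearly alike, so these values had to stay close and are no separate support. The aic1 difference was -5.18 when scaled to the added transcripts and -4.80 after quantile normalisation. Quantile normalisation left abp1 at 0.65 without overlap and abp4 at -0.13.

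**Figure D3:**
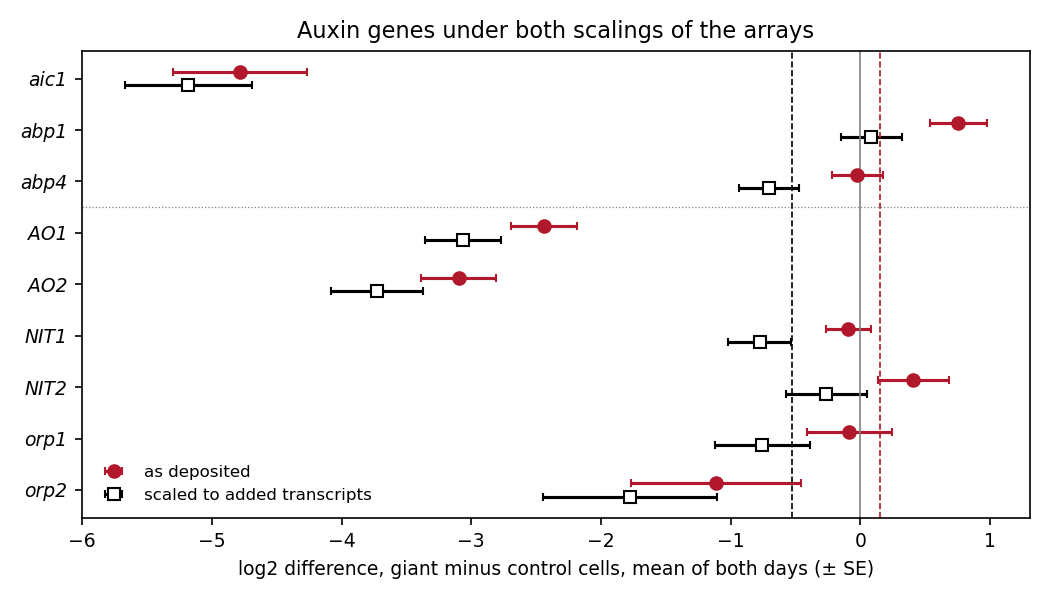
Log2 difference, giant minus control cells averaged over the days (± SE, 12 arrays), as deposited (red circles) and after scaling to the added transcripts (open squares); dashed lines mark the medians of all tested probe sets, 0.15 (red) and -0.53 (black). All genes shift left with the second scaling, but aic1, AO1 and AO2 lie far left of both medians.

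The second question of the design is whether levels differed between 21 and 14 days, which did not enter the choice of genes. Over all probe sets, 77 of 12080 (0.637%) differed between days in giant cells, while in control cells 3 did (0.0248%; limma, adjusted p under 0.05). The effect of cell type differed between days for 0 probe sets (0%), with 839 at an unadjusted p under 0.05. Leaving out single arrays moved these counts, to 4 (without replicate 1 of the 21-day giant cells) up to 205 (without replicate 1 of the 14-day control cells) in giant cells, to 0 to 2 in control cells, and to 9 for the difference between days without replicate 2 of the 21-day giant cells. No day contrast of aic1, abp1 or abp4 was among the calls.

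For aic1 the difference of 21 minus 14 days was 1.87 ± 0.73 (SE) on the log2 scale in control cells, 3.66-fold, with a 95% interval of 0.29 to 3.46. Its unadjusted p was 0.024 and its adjusted p 0.45 (limma), so it did not pass, and the ranges of both days overlapped (lowest 376.78 at 21 days, highest 649.91 at 14 days). Only 0.414% of the tested probe sets had a larger difference between days in control cells. Leaving out single arrays gave differences of 1.05 to 2.83, and the adjusted p was 0.3 to 0.83 over all alternatives. In giant cells, where all values are at background, the difference was 0.24 ± 0.73 (adjusted p = 0.9, limma). The change of the giant-cell effect between days was -1.64 ± 1.04, with an interval of -3.87 to 0.60 (adjusted p = 0.82, limma). With giant cells at background, it mostly repeats the day difference of the control cells with its sign turned, and says little about giant cells.

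The spread of aic1 among control arrays was wide. In control cells at 14 days its log2 SD was 1.79, against a median of 0.37 over all tested probe sets, and 0.844% of them had a larger SD in that group. In control cells at 21 days its SD was 0.64, and 17% had a larger one. Replicate 3 was the high array at 14 days (649.91) and replicate 2 the low one (46.45). The labels do not say which root tissues each control sample held, and marker genes varied on the same arrays. RCP1, a root cap gene, had 22.0, 984.6 and 383.5 in replicates 1, 2 and 3 of the 14-day control cells, and 275.2, 428.4 and 264.2 at 21 days. Lsi1, a silicon channel of the root exodermis and endodermis in rice, had 5047.1, 1875.3 and 892.0 in the 14-day control cells. At 14 days the array with the highest RCP1 had the lowest aic1, and the array with the highest Lsi1 had the middle one. The part of these tissues in the spread of aic1 was not tested.

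For abp1 the difference of 21 minus 14 days was -0.24 ± 0.31 in giant cells (95% interval -0.90 to 0.43) and 0.20 ± 0.31 in control cells (-0.47 to 0.87). For abp4 it was 0.19 ± 0.28 in giant cells (-0.41 to 0.79) and 0.06 ± 0.28 in control cells (-0.54 to 0.66). The lowest of these 4 adjusted p-values was 0.74 (limma). The giant-cell effect at 21 minus 14 days was -0.44 ± 0.44 for abp1 (-1.38 to 0.50) and 0.13 ± 0.39 for abp4 (-0.72 to 0.98). Over both cell types the intervals of the day difference reach 0.535- to 1.82-fold for abp1 and 0.688- to 1.73-fold for abp4, so changes of that size remain possible.

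**Figure D4:**
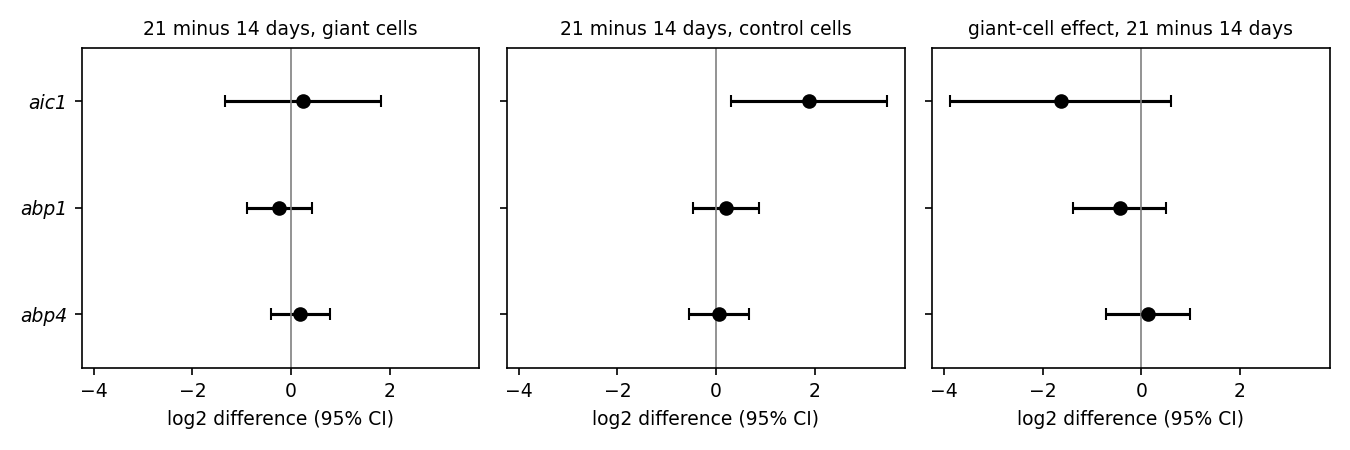
Log2 differences of 21 minus 14 days within giant cells, within control cells, and of the giant-cell effect, with 95% intervals from limma (3 arrays per group). Only the interval of aic1 in control cells, 0.29 to 3.46, lies clear of 0, and its adjusted p was 0.45.

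Spread among replicates was small for abp4 in giant cells at 14 days, with a log2 SD of 0.05 that 97.6% of the tested probe sets exceeded, and for abp1 in giant cells at 21 days, with 0.09 that 93.3% exceeded. Both genes varied more in control cells at 21 days, with SDs of 0.60 for abp1 and 0.53 for abp4, where the median over tested probe sets was 0.35. Their departures came from different arrays. For abp1 replicate 1 was low (127.24), and for abp4 replicate 3 was high (588.57).

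Other auxin genes on the array were few. Lists of auxin transport, auxin synthesis and conjugation, and auxin binding and response matched 13 genes beside aic1, abp1 and abp4, and 8 of these were tested. Of the 8, 0 were higher in giant cells (0 also at an unadjusted p under 0.05), 2 were lower and 6 did not pass. The median difference was -0.12, against 0.15 over all tested probe sets. A count of 2 in 8 stands beside 17.0% lower among all probe sets, so it is no result about auxin genes as a group. Of the 13, 4 carry names shared with other proteins: ABP1, ABP2 and ABP3 are here synonyms of actin depolymerizing factors, and arf1 is also used for ADP-ribosylation factors. Without them 9 genes remained, 6 tested, with the same 2 lower, 0 higher and a median of -0.60. No efflux carrier of the PIN family and no second influx carrier was matched by name.

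The 2 lower genes were the aldehyde oxidases AO1 and AO2, enzymes that can oxidise indole-3-acetaldehyde to auxin and also act on abscisic aldehyde. AO1 had 66.6, 87.5 and 59.3 in giant cells at 21 days and 69.3, 72.8 and 32.2 in giant cells at 14 days, against 280.8, 382.5 and 230.1 in control cells at 21 days and 660.0, 340.3 and 533.6 in control cells at 14 days. AO2 had 89.0, 121.8 and 39.8 in giant cells at 21 days and 92.3, 122.3 and 39.3 in giant cells at 14 days, against 619.4, 557.3 and 844.4 in control cells at 21 days and 680.7, 898.2 and 848.9 in control cells at 14 days. All giant-cell arrays lay below all control arrays for both genes.

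Neither gene was above the 40th percentile of its array on any of the 6 giant-cell arrays. Both were above it on all 6 control arrays, so, like aic1, they entered the fit only through the control cells. Such a selection favours a difference. Measured against the 40th percentile of the giant-cell arrays, AO1 was at least 2.99-fold lower in giant cells and AO2 at least 5.76-fold lower. The fitted differences were -2.44 ± 0.25 (SE) for AO1 and -3.10 ± 0.29 for AO2. Their p-values in the filtered fit are not read as support, since the filter kept both genes through the control cells. With no filter the adjusted p-values were 3.3e-05 for AO1 and 1.4e-05 for AO2 (limma). These come from the same arrays and contrast and are not read as separate support. The AO1 difference was -1.92 ± 0.36 at 21 days and -2.96 ± 0.36 at 14 days, and the change between days did not pass (1.04 ± 0.51, adjusted p = 0.73, limma).

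The remaining auxin synthesis genes did not pass. The nitrilases, which can release auxin from indole-3-acetonitrile, differed by -0.09 ± 0.17 (NIT1, adjusted p = 0.69) and 0.41 ± 0.27 (NIT2, adjusted p = 0.25, limma). The tryptophan synthase beta subunit genes, whose product tryptophan is a precursor of auxin, differed by -0.08 ± 0.33 (orp1, adjusted p = 0.85) and -1.11 ± 0.66 (orp2, adjusted p = 0.19). The orp2 value depended on replicate 1 of the 14-day control cells, at 109.1 where the other arrays of its group had 1172.7 and 1587.6. Without that array the difference was -1.70 and the adjusted p 0.019. Scaled to the added transcripts, NIT1 (-0.78) and orp2 (-1.78) were called lower as well, and NIT2 changed sign to -0.26.

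**Figure D5:**
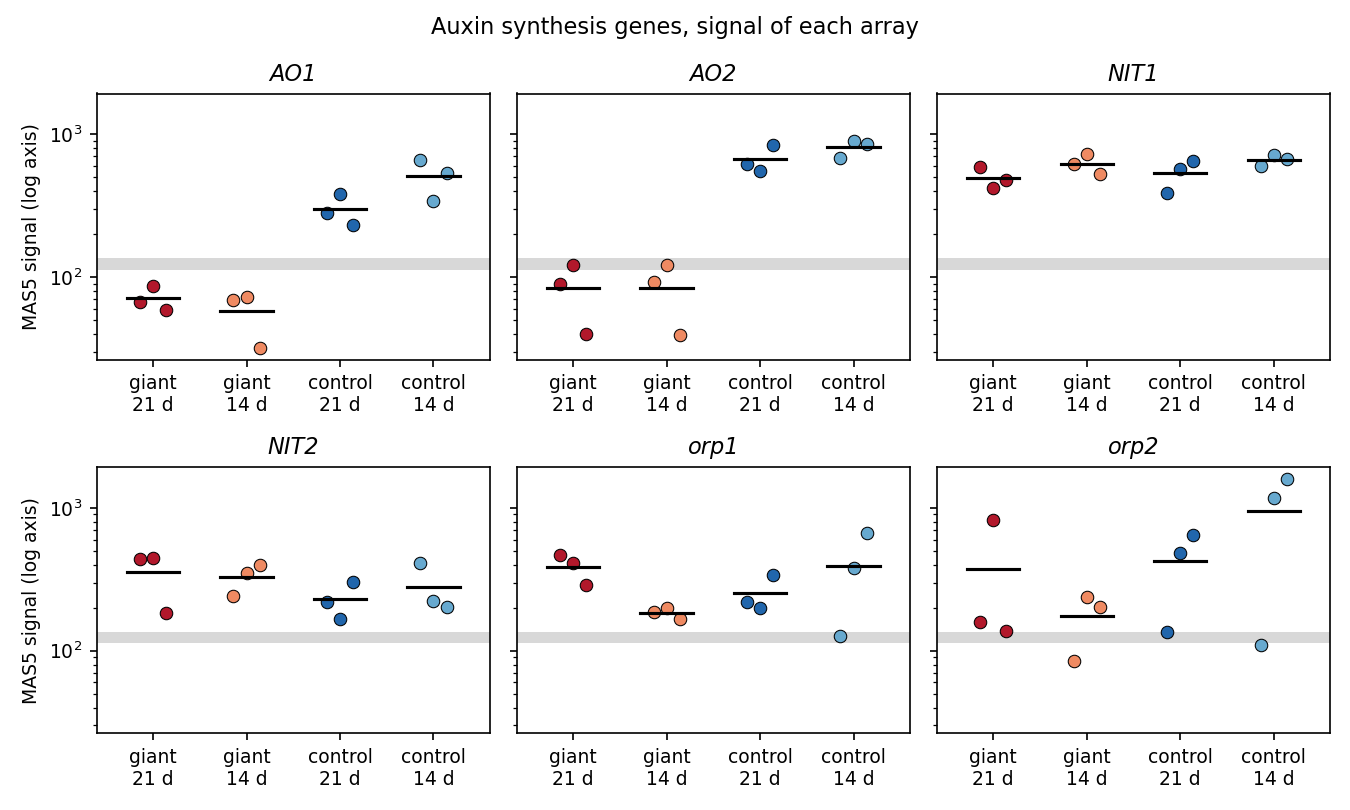
MAS5 signal (log axis) of 6 auxin synthesis genes on each array; points are arrays, bars group means and the grey band the arrays' 40th percentiles (112.8 to 135.4). AO1 and AO2 in giant cells lie within or under the band and below all control arrays, the other 4 genes overlap between cell types.

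Genes at low signal were not tested. The flavin monooxygenase gene yuc, of the main route of auxin synthesis, had means of 11.7 in 21-day giant cells, 11.4 in 14-day giant cells, 13.1 in 21-day control cells and 14.7 in 14-day control cells. The auxin glucosyltransferase gene iaglu had 59.1 and 54.7 in giant cells at 21 and 14 days, and 68.7 and 59.9 in control cells at 21 and 14 days. BA1 (barren stalk1), a transcription factor of axillary meristems in the shoot, stayed at 17.8 or less on all 12 arrays. With signals this low in both cell types, the arrays cannot show whether the genes differed.

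AUX1 permeases run on the proton gradient that plasma membrane proton pumps build. Of the 2 pump genes on the array, mha4 was lower in giant cells, beside 17.0% lower over all tested probe sets. It had 2182.6, 4546.0 and 4409.0 in giant cells at 21 days and 2732.9, 3206.0 and 2220.0 in giant cells at 14 days, against 7841.7, 10193.5 and 8764.7 in control cells at 21 days and 5969.9, 10505.0 and 10010.3 in control cells at 14 days. The groups did not overlap, and on both days 23.2% of the tested probe sets separated in that way, in some direction. The mha4 signal was 2.83-fold lower in giant cells (log2 -1.50 ± 0.21, adjusted p = 0.00019, limma). With shares this large, a call of mha4 is no result about proton pumps as a group. Unlike aic1, mha4 was bright in both cell types. The other pump gene, mha1, differed by 0.16 ± 0.22 (adjusted p = 0.57, limma), or -0.53 when scaled to the added transcripts.

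Auxin-binding proteins share the lumen of the endoplasmic reticulum with chaperones and protein disulfide isomerases. Of 14 such genes tested, 3 were higher in giant cells (pdi3 0.83, pdi4 0.91 and pdi12 0.49), 4 were lower (pdi8 -1.04, pdi6 -0.68, the calreticulin gene CRT -0.60 and the chaperone gene bip2 -0.55), and 7 did not pass, with a median of -0.21. Over all tested probe sets 25.1% were higher and 17.0% lower, so these counts are no result about the group. After quantile normalisation the same 3 were higher and 5 were lower, with bip2 no longer called (adjusted p = 0.062, limma) and bip1 and the calnexin gene CNX called lower. Scaled to the added transcripts, 0 of the 14 were higher and 9 lower. Of 7 tested expansins, cell wall loosening proteins encoded by genes that auxin is known to regulate, expA4 was higher (1.83 ± 0.37) and expa1 (-2.58 ± 0.42), EXPA5 (-2.19 ± 0.50) and expa2 (-1.77 ± 0.55) were lower, beside 25.1% higher and 17.0% lower over all tested probe sets. Scaled to the added transcripts 1 was higher and 5 were lower, beside 3.83% and 41.4% of all. The expa1 probe set entered the fit only through control cells: it had 2.2 to 23.8 in giant cells, with 0 of 6 arrays above the 40th percentile, against 52.9 to 228.5 in control cells, with 3 of 6 above, and no bound on its fold could be given.

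Some genes matched by name to lists of root tissue markers also differed in the same contrast. A match by name does not make a gene a marker of that tissue. Of 5 xylem genes, 4 were lower in giant cells, beside 17.0% of all tested probe sets, with a median of -2.53. The summed xylem signal was 342 to 768 in giant cells at 21 days and 361 to 1103 in giant cells at 14 days. In control cells it was 828 to 3136 at 21 days and 1883 to 3377 at 14 days. Of the 4, bk2 was above the 40th percentile on 0 giant-cell and 5 control arrays, so it entered the fit only through control cells. The genes cesa10, cesa11 and CesA12 were above it on 1 giant-cell array each, and on 5, 4 and 5 control arrays. The count of 4 is therefore not read as a result about xylem genes. Of 5 tested genes on the list for root meristem and cap, the root cap genes RCP1 (-3.39) and RCP2 (-2.20) were lower. The knotted-like homeobox gene lg3 (1.94) and the gene rs2 (1.54) were higher, and knox7 (-0.09) did not pass. All of lg3, rs2 and knox7 were matched by name and are not taken as markers of the root meristem. Over all tested probe sets 25.1% were higher and 17.0% lower, so these counts are no result about the list. RCP1 and RCP2 were above the 40th percentile only on control arrays and lg3 and rs2 only on giant-cell arrays. Scaled to the added transcripts, 1 of the 5 was higher and 3 were lower, beside 3.83% and 41.4% of all tested probe sets. There rs2 was no longer called (adjusted p = 0.051, limma) and knox7 was called lower. Lsi1, the only cortex and endodermis gene tested, was lower (-4.31). The single phloem gene, sut1, stayed below the 40th percentile on every array, at 44.3 or less. Of 8 growth-regulating factor genes, listed as markers of lateral root primordia, the 4 tested were all higher in giant cells, beside 25.1% of all tested probe sets, with sums of 932 to 1311 at 21 days and 1250 to 1506 at 14 days in giant cells, against 533 to 626 at 21 days and 351 to 828 at 14 days in control cells. After quantile normalisation 3 of the 4 were called, without GRF12 (adjusted p = 0.075, limma), and scaled to the added transcripts 1, GRF8, whose probe set was above the 40th percentile on 5 giant-cell arrays and 0 control arrays and so entered the fit only through giant cells. On the list for epidermis and root hairs 7 genes were tested, most of them rop genes matched by name, so the counts are not read for that tissue. As deposited 1 was higher and 3 were lower, and scaled to the added transcripts 0 were higher and 4 lower. These shares stand beside those of all probe sets given above. The higher one, rbohB, moved to 0.07 under that scaling, against 0.76 as deposited. Among the lower ones, ocl1 was above the 40th percentile on 0 giant-cell and 4 control arrays, so it entered the fit only through control cells. The lists held no gene that defines giant cells, and the part of these tissues in the values of aic1, AO1 and AO2 was not tested.

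The named genes whose signals were most like each member over the 12 arrays are given by Pearson correlation on the log2 scale among 789 named genes. These arrays fall into 2 cell types and share the scaling, so any gene with a similar difference between cell types ranks high. For aic1 these were LOC732747 (0.93), the sucrose-phosphate phosphatase gene SPP2 (0.92), the glutathione S-transferase gene gst2 (0.92), the mitochondrial adenine nucleotide translocator gene ANT-G1 (0.92) and the bZIP factor gene lip15 (0.90). All 5 were lower in giant cells, and within groups, after removing group means, their correlations with aic1 were 0.21 to 0.51. One of them, gst2, averaged 711.8 in giant cells at 21 days and 594.9 in giant cells at 14 days, against 6498.7 in control cells at 21 days and 5790.5 in control cells at 14 days. SPP2 was dim in giant cells, like aic1, with means of 3.1 at 21 days and 17.6 at 14 days. In control cells its means were 160.1 at 21 days and 105.8 at 14 days, so its likeness to aic1 rests partly on low giant-cell signals.

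For abp1 the most similar genes were the glutathione S-transferase gene gst17 (0.91), hda110 of the histone deacetylases (0.88), the cytosolic glyceraldehyde-3-phosphate dehydrogenase gene GAPC (0.88), the TATA-binding protein gene tbp1 (0.86) and the ABC transporter gene MRP2 (0.85). Within groups gst17 kept a correlation of 0.86 with abp1. Its means were 673.3 in giant cells at 21 days and 748.9 in giant cells at 14 days, against 550.2 in control cells at 21 days and 451.0 in control cells at 14 days.

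For abp4, which did not separate the cell types, the correlations were lower: the catalase gene CAT3 (0.81), the homeobox gene knox7 (0.74), the carotenoid cleavage dioxygenase gene CCD (0.71), homeobox1 (0.70) and the cysteine protease gene ccp1 (0.68). Within groups CCD reached 0.92 with abp4 and CAT3 0.83. In all, 52 named genes had a correlation above 0.8 with aic1, 26 with abp1 and 1 with abp4.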

How the data were processed

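The deposited values are intensity: the authors used MAS5 in Affymetrix Expression Console, per the submitters' processing notes (version not given in the sources used here). Per the labels' protocols, PicoPure was used for RNA isolation and NuGEN kits for amplification and biotin labelling. Amplification from few cells can add spread between arrays. Of 17734 probe sets, 113 controls were left out of the tests. Array medians were 182.2 to 229.9, and precision is limited by having 3 arrays per group. Detection calls were not used here.

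An offset of 9.5 was added before log2, with no further normalization. Probe sets above the 40th percentile of their own array on at least 3 arrays were tested (12080). limma 3.58.1 in R 4.3.3 (lmFit, eBayes with a variance trend) fitted 4 group means. Tests were two-sided with Benjamini-Hochberg adjustment over all tested probe sets at 0.05, and were checked on simulated data. Intervals are at 95%.

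The array's annotation, of 2007, names 1 gene for 1452 probe sets, several for 1 and none for 16168. Of 1108 genes, 1060 are in the RefSeq table of Zm-B73-REFERENCE-NAM-5.0, used for names alone. The brightest probe set stood for a gene. Named were all matched auxin genes, the called members of the lists of proton pumps, endoplasmic reticulum proteins and expansins, and the 5 genes most like each member; the markers were added beside them. The members and lists were chosen with earlier results of these data known. Alternatives were other offsets (1 and 32), no filter or a stricter one, quantile normalization, scaling to the added transcripts, a replicate block, leaving out each array and, for the auxin list, counting every probe set. The list without names of another kind was an alternative chosen after seeing the data.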

Additional observations from a re-analysis of the deposited data

How the results depend on the processing

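Calls of aic1, abp1 and abp4 between days stayed absent under every alternative run, with adjusted p-values (limma) of 0.3 or more. The mean difference of aic1 ranged over -6.55 to -3.42, with the same direction throughout, and that of abp1 over 0.085 (scaled to the added transcripts) to 0.859. That scaling moved abp4 to -0.705 and its change of the giant-cell effect between days to -0.100, against 0.13. It also gave 6 of the 8 tested genes of the auxin lists lower in place of 2, beside 41.4% of all tested probe sets. Of these 6, ABP3 and arf1 carry names shared with other proteins. Among the 6 tested auxin synthesis genes 4 were lower, with NIT1 at -0.777 and orp2 at -1.778. NIT2 reversed to -0.262 and was not called. The abp1 probe set was not tested under the stricter filter.

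Counts of probe sets called between days were small and moved. In giant cells, against 77, they were 42 without a filter, 125 with the stricter filter (fewer probe sets tested), 118 after quantile normalization and 19 when scaled to the added transcripts. In control cells, against 3, they were 1 without a filter and 0 when scaled. Leaving out each array in turn gave 4 to 205 in giant cells, 0 to 2 in control cells and 0 to 9 for the difference between days, the 9 without giant cells at 21 days replicate 2. The cause was not tested. With the replicate block the counts were 26 in giant cells and 1 in control cells. Same-numbered arrays correlated at -0.066 to 0.165 between cell types and -0.052 to 0.235 between days, with 5 and 6 of 12 arrays closest to their own number. Other pairs gave -0.155 to 0.167 between cell types and -0.269 to 0.167 between days. With 6 same-numbered pairs of each kind, these values cannot decide whether the numbers pair the samples. The count between cell types was 3808 to 5688 under all alternatives run.

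Leaving out each array moved differences that did not pass across 0. The range was -0.006 to 0.543 for abp1 between days in control cells, -0.246 to 0.224 for abp4 there, -0.034 to 0.436 for the change of the abp4 effect between days, and -0.400 to 0.176 for orp1 between cell types. Without replicate 1 of the 14-day control cells orp2 was -1.702.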
